A study of Arabidopsis thaliana with 4 samples.

Results

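The mitochondrial genome transcripts of rosette leaves were taken as all features whose identifier begins with ATMG, the prefix of mitochondrial loci in Arabidopsis thaliana, which gave 152 of the 33059 features in the table. Of these, 19 reached 1 TPM on average across the 4 libraries. Another 65 lay below that mean but above 0 in at least 1 library, and 68 were listed at 0 in every library. The features just outside and just inside the limit had means of 0.988 and 1.01 TPM. TPM is an abundance per transcript length that adds up to the same total in each library.

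The libraries were made from total RNA of leaves of plants aged 28 days. The comparison was of wild-type plants (WT) with plants carrying Pro35S:ERF4 (OE), a transgene in which ERF4 is driven by the cauliflower mosaic virus 35S promoter, active in most tissues. Each genotype had 2 libraries. The product of ERF4 binds ethylene-responsive promoters and is known to repress transcription. The labels do not say how many transgenic lines were used or whether replicates came from separate plants, and p-values here reflect no more than the library-to-library spread, which may be technical. In bulk tissue, fewer cells of a type and less RNA per cell cannot be told apart.

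Plant mitochondria keep a small genome of their own. Among its products are core subunits of the respiratory chain and ATP synthase, proteins that attach haem to cytochrome c, and part of the mitochondrial ribosome. The nucleus encodes most mitochondrial proteins. In plant mitochondria a poly(A) tail marks a transcript for decay. Whether the libraries were made from poly(A)-selected RNA is not given in the sources used here. A large copy of the mitochondrial genome also lies in chromosome 2 of Arabidopsis.

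The deposited table gives identifiers with no names. Names came from notes in the RefSeq annotation of assembly TAIR10.1, where genes and pseudogenes of chromosome 2 are paired with their closest mitochondrial locus. Such notes covered 53 of the 152 features and 7 of the 19 at or above 1 TPM. The other 12 are given by identifier, with no role.

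Where they aligned, the copies on chromosome 2 were nearly identical in sequence to the mitochondrial genome. All 55 chromosome 2 loci with a note aligned to the RefSeq mitochondrial genome, at identities from 99.03% to 100% in the best aligned stretch. In some loci that stretch was short. It covered 15.4% of the length of AT2G07706 and 26.3% of AT2G07798, the locus paired with ATMG01220. Of 42 loci that aligned over at least 99% of their length, 28 matched at every base. The first 120 coding bases of 2 such genes are shown as stretches in which the genomic sequence alone does not tell the copies apart. They belong to rps12, a protein of the small ribosomal subunit (ATMG00980, paired with AT2G07675), and atp9, the ring subunit of ATP synthase (ATMG01080, paired with AT2G07671). Each is written 5′ to 3′ on the coding strand, with the start codon in capitals, and is the same in both genomes.
rps12: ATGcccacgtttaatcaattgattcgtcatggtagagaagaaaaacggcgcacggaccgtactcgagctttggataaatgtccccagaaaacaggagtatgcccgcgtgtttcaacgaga
atp9: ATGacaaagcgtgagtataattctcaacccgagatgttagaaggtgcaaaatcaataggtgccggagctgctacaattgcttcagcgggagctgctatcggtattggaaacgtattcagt

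Other pairs differ by a single base. The reading frame of AT2G07674, which RefSeq pairs with ATMG01010, a conserved protein of unknown function, differed from the mitochondrial genome at 1 of 975 bases. The stretch from base 462 to base 522 of that frame is shown with the differing base in capitals, first as in the mitochondrial genome and then as on chromosome 2. The change is G492A, counted from the first base of the frame.
mitochondrion: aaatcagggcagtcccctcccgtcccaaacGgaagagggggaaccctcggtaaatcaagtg
chromosome 2: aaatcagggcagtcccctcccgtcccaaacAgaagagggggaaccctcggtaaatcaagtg

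Leaf identity and the transgene were checked first. The summed level of 5 leaf mesophyll markers was 53051 and 19919 TPM in WT, against 26035 and 41436 TPM in OE. Both pollen markers were listed at 0 throughout. The 3 flower markers summed to at most 1.53 TPM. The 4 root markers summed to 141 and 40.8 TPM in WT, against 55.8 and 68.5 TPM in OE, most of it the iron transporter IRT1. In the mesophyll and root sums WT replicate 1 was the highest library and WT replicate 2 the lowest, and the cause was not tested. The 4 seed markers summed to 42.7 and 49.5 TPM in WT but to 0.51 and 3.74 TPM in OE, and their part in the results was not tested. ERF4 had 9.68 and 10.6 TPM in WT, against 24.5 and 28.8 TPM in OE (limma, Benjamini-Hochberg adjusted p = 0.381). WT replicate 2 stood apart in transcripts of low level, since all features that averaged under 1 TPM summed to 1986 TPM there, beside 1308 to 1552 TPM in the other libraries. Results that rest on it are also given without it.

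Mitochondrial transcripts were scarce in all 4 libraries. Their summed level was 65.2 and 145 TPM in WT replicates 1 and 2 and 88.1 and 104 TPM in OE replicates 1 and 2. The WT libraries held both the lowest and the highest sum, and the OE libraries lay between them. As a share of all TPM this was 0.0105% ± 0.00564 in WT and 0.00959% ± 0.00111 in OE (SD, n = 2), a ratio of means of 0.913 (exact two-sided permutation test, p = 1, where 0.333 is the smallest p that this design allows). Without WT replicate 2 the ratio was 1.47, so its direction rests on that library.

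The chloroplast, the other organelle with a genome of its own, gave larger and steadier sums. Its 133 features summed to 514 and 431 TPM in WT, against to 410 and 418 TPM in OE. The mitochondrial sum was 12.7 and 33.6 per 100 TPM of chloroplast features in WT, and 21.5 and 24.9 in OE. Against both organelles together, the mitochondrial share had a ratio of OE over WT of 1.03, so the direction of the small difference also turned with the denominator.

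**Figure D1:**
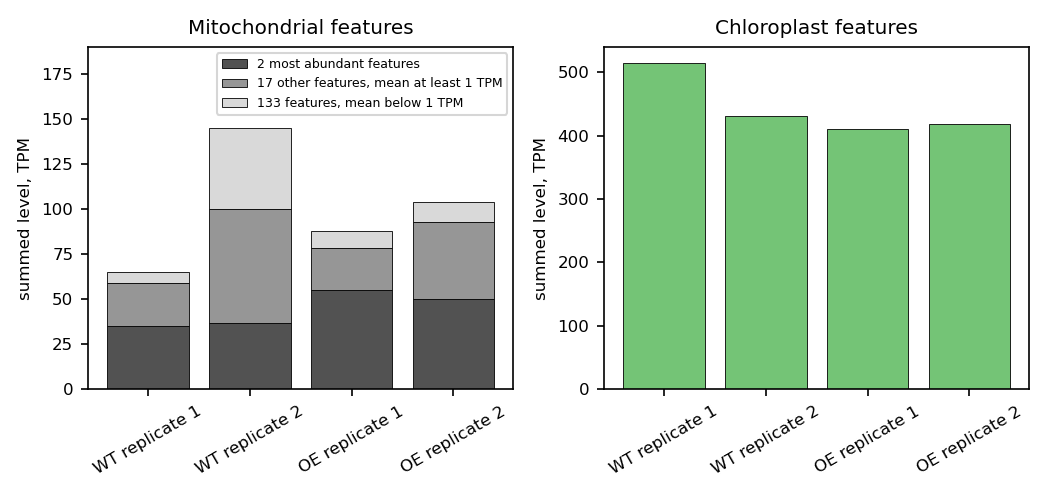
Summed level in TPM of mitochondrial features (left, divided into the 2 most abundant features, the 17 others with a mean of at least 1 TPM and the 133 below it) and of chloroplast features (right) in each of the 4 libraries. The mitochondrial bars run from 65.2 TPM in WT replicate 1 to 145 TPM in WT replicate 2, with both OE libraries between them, while the chloroplast bars run from 410 to 514 TPM.

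A pair of features made up much of the mitochondrial sum. ATMG01390 and ATMG00020, neither of which the sources used here name, together gave 54.2% and 25.4% of mitochondrial TPM in WT and 62.5% and 48.2% in OE. Their joint level was 35.3 and 36.9 TPM in WT, against 55.1 and 49.99 TPM in OE. The libraries of each genotype were thus close to each other, unlike those of the remaining features.

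ATMG00020 had 14.9 and 12.9 TPM in WT, against 27.4 and 25.97 TPM in OE. Both OE libraries lay above both WT libraries, with means of 13.9 ± 1.38 and 26.7 ± 1.03 TPM (SD, n = 2) and a ratio of means of 1.92. On the log2(TPM + 1) scale, which understates the change of low features, the difference was 0.90 (SE 0.350, 95% interval 0.13 to 1.67). It did not pass the threshold over all 20010 features tested (limma, Benjamini-Hochberg adjusted p = 0.779), although its unadjusted p was 0.0266. In fits that left out 1 library the log2 fold change stayed between 0.80 and 0.99.

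ATMG01390, the most abundant feature, had 20.4 and 23.96 TPM in WT, against 27.6 and 24.02 TPM in OE. The lower OE library and the higher WT library were nearly equal. The log2 fold change was 0.21 (SE 0.355, limma, Benjamini-Hochberg adjusted p = 1.0), which is within its error.

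The third feature by level was ATMG01320, named NADH dehydrogenase 2B in the RefSeq note. It holds part of nad2, a membrane subunit of complex I, which takes electrons from NADH into the respiratory chain. In plant mitochondria nad2 is joined from separate transcripts by trans-splicing. Its level was 5.79 and 17.7 TPM in WT, against 5.79 and 18.3 TPM in OE, high in replicate 2 of each genotype and low in replicate 1. The genotype means of 11.7 ± 8.41 and 12.1 ± 8.87 TPM (SD, n = 2) differed far less than the libraries did within a genotype (log2 fold change 0.02, SE 0.573; adjusted p = 1.0, limma with Benjamini-Hochberg). Its chromosome 2 copy, AT2G07689, matched the mitochondrial genome at all 645 coding bases yet was listed at 0 in all 4 libraries.

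The remaining 16 features had means between 1.01 and 2.95 TPM. At this level many values differed by several-fold between libraries of 1 genotype. ATMG01370 had 0 and 5.14 TPM in WT, against 0.79 and 5.85 TPM in OE, again higher in replicate 2 of each genotype. ATMG00060 was steadier than most, at 2.91 and 2.46 TPM in WT, against 2.07 and 3.17 TPM in OE, and its groups overlapped.

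Among features with a role in the notes, both ribosomal proteins above 1 TPM had their highest value in WT replicate 2. For rps12 (ATMG00980) the levels were 0.68 and 3.90 TPM in WT, against 0.60 and 1.66 TPM in OE. For rpl5 (ATMG00210), which encodes a protein of the large ribosomal subunit, they were 0.46 and 3.21 TPM in WT, against 0.77 and 0.45 TPM in OE. In each, WT replicate 1 lay between the OE values, so the groups overlapped. The log2 fold changes were -0.48 (SE 0.583) for rps12 and -0.63 (SE 0.581) for rpl5, with a limma adjusted p of 1.0 (Benjamini-Hochberg) in both.

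The member of complex V above 1 TPM, atp9 (ATMG01080), had 0.62 and 3.45 TPM in WT, against 0.67 and 0 TPM in OE. The OE range reached above the lower WT library. Its log2 fold change was -1.05 (SE 0.597, limma, Benjamini-Hochberg adjusted p = 1.0), and leaving out 1 library moved it between -1.78 and -0.33.

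ATMG01010 was seen in the WT libraries and in neither OE library. Its WT levels were 1.56 and 2.49 TPM, and each OE library listed it at 0, so no fold is given, and 0 in such a table can be a failed estimate. Its mean of 1.01 TPM reached the limit of 1 TPM through the WT values alone. The interval and p of this feature are therefore no support for a difference. The difference on the log2(TPM + 1) scale was -1.58 (SE 0.501, 95% interval -2.68 to -0.47), with an unadjusted limma p of 0.00942. It did not pass over all features tested (limma, Benjamini-Hochberg adjusted p = 0.524). Its copy on chromosome 2, shown above with its single differing base, was listed at 0.39 TPM in WT replicate 2 and at 0 in the other libraries.

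ATMG01330, which RefSeq names only as the parent of a pseudogene, is paired with a chromosome 2 locus (AT2G07808) that aligned within nad2 of the mitochondrial genome, the gene of ATMG01320. Unlike ATMG01320, it was lower in each OE library than in either WT library, at 1.05 and 2.15 TPM in WT, against 0.86 and 0.54 TPM in OE (log2 fold change -0.59, SE 0.491; adjusted p = 1.0, limma with Benjamini-Hochberg). ATMG01220, of unknown function, had 0 and 5.97 TPM in WT, against 1.51 and 2.80 TPM in OE, so the WT libraries enclosed both OE libraries.

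The 8 further features carry no note. ATMG00660 had 1.53 and 2.95 TPM in WT, against 2.30 and 1.17 TPM in OE, and ATMG00580 had 0.83 and 2.62 TPM in WT, against 1.11 and 2.93 TPM in OE. ATMG00690 had 0 and 4.73 TPM in WT, against 0.10 and 1.57 TPM in OE. ATMG00510 had 0.88 and 2.40 TPM in WT, against 0.98 and 1.21 TPM in OE. In these 4 the groups overlapped, and WT replicate 2 exceeded WT replicate 1.

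The opposite order within WT was seen in ATMG00650, at 3.41 and 0.49 TPM in WT, against 0.53 and 0.97 TPM in OE. The same held for ATMG00030, at 2.00 and 1.21 TPM in WT, against 2.17 and 0 TPM in OE, and for ATMG00513, at 1.67 and 0.92 TPM in WT, against 1.10 and 1.20 TPM in OE. ATMG00080 was the lowest of them, at 0.14 and 1.29 TPM in WT, against 1.68 and 1.00 TPM in OE. None of these had groups that stood apart.

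**Figure D2:**
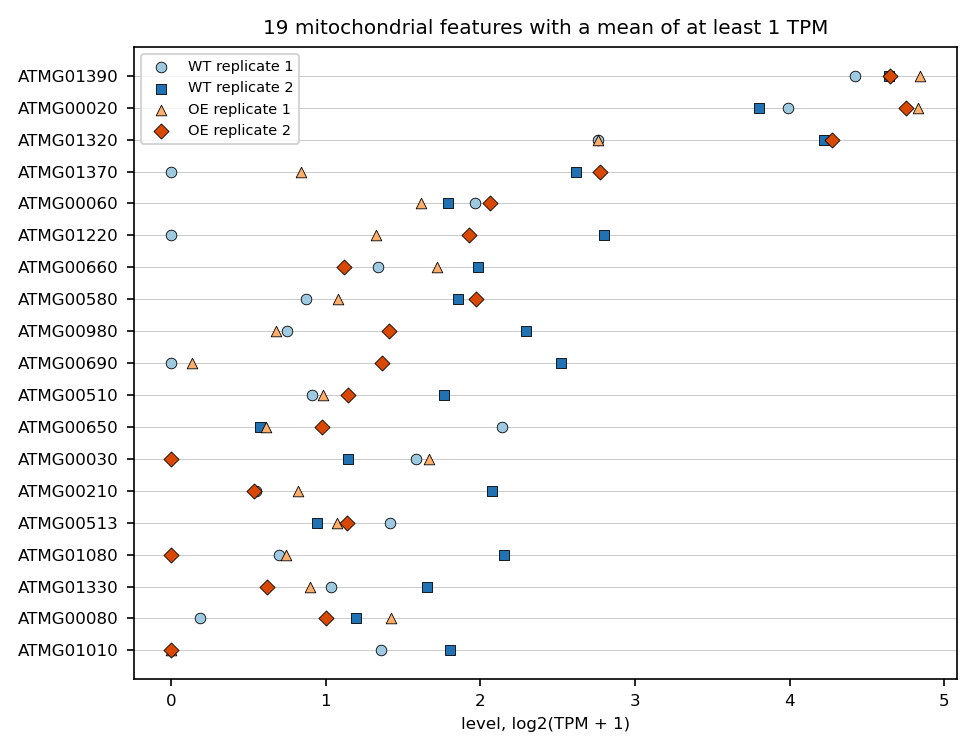
Level in log2(TPM + 1) of the 19 mitochondrial features that averaged 1 TPM or more, ordered by mean, with 1 symbol per library. The 2 uppermost features have close symbols within a genotype, ATMG01320 splits by replicate number into 5.79 TPM and 17.7 to 18.3 TPM, and most others spread widely between WT replicates 1 and 2.

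Between the genotypes, 0 of the 19 features passed the threshold (limma, Benjamini-Hochberg adjusted p over all features), beside 0.09% of the 20010 features tested (0.06% higher and 0.03% lower in OE). An unadjusted p under 0.05 was found for 2 of the 19, ATMG00020 and ATMG01010, where 5.3% of all features had one. Both OE libraries lay above both WT libraries in 2 of 19 (10.5%), beside 13.7% of all features, and below them in 2 of 19 (10.5%), beside 14.2%. The shares that did not overlap were thus no larger than over all features. ATMG01010 and ATMG01330, the 2 below, had OE values under 1 TPM and reached the limit through WT. Their place in these counts is therefore no support for a difference.

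The log2 fold change was below 0 in 12 of the 19, or 63.2%, beside 51.7% of all features. Its median was -0.24, beside -0.016 over all features. Without WT replicate 2 it was below 0 in 7 of 19, so this direction rests on that library. The median was then 0.15, close to the 0.14 over all features in the same fit. When mitochondrial features were scaled to their own total without the 2 most abundant, a setting chosen after seeing the data, the median was 0.041. Among the 19, the distance between the WT libraries exceeded the difference of the genotype means in 16. The 95% interval of the log2 fold change reached a median of 1.18 to either side, so a change of 2-fold in most of these features was not detectable.

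**Figure D3:**
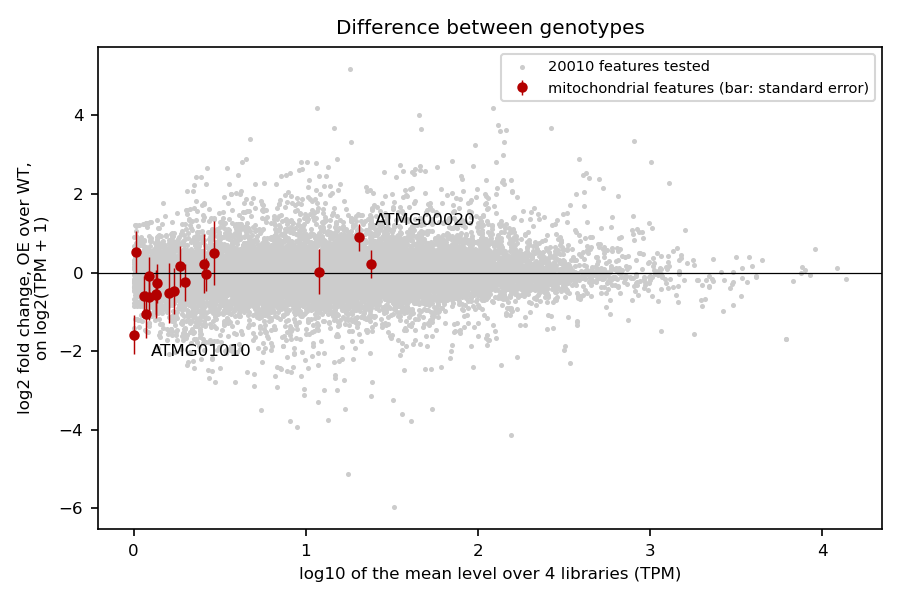
Log2 fold change of OE over WT on log2(TPM + 1) against the log10 of the mean level in TPM, for the 20010 features tested (grey) and the 19 mitochondrial ones (red, with standard errors). The mitochondrial features lie at the low end of the levels and on both sides of 0, from -1.58 for ATMG01010 to 0.90 for ATMG00020.

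WT replicate 2 differed from the other libraries in the features of lowest level. The 133 features below 1 TPM summed to 6.35 and 45.04 TPM in WT replicates 1 and 2 and to 9.96 and 10.97 TPM in OE replicates 1 and 2. The sum in WT replicate 2 was 7.09 times that in WT replicate 1, while over all 13049 features with a mean below 1 TPM the same ratio was 1.49. Of the 133, 54 were above 0 in WT replicate 2, while WT replicate 1 had 19 and OE replicates 1 and 2 had 31 and 32. As a share this was 40.6%, beside 14.3%, 23.3% and 24.1%, where all features below 1 TPM ran from 24.7% to 28.9%. Of 30 mitochondrial features seen in a single library, 21 were seen in WT replicate 2, and the matching share over all features was not computed.

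Among the 19 features at or above 1 TPM, WT replicate 2 was also the higher WT library more often than not. WT replicate 2 exceeded WT replicate 1 in 14 of them (73.7%), beside 71.3% of all features tested. It held the highest value in 9 of 19 (47.4%), beside 42.9%. These shares lay close to those over all features, but the sizes did not. Without the 2 most abundant features, the other 17 summed to 23.5 TPM in WT replicate 1 and 63.1 TPM in WT replicate 2, a ratio of 2.68. The median level of the 19 on the log2(TPM + 1) scale was 1.04 in WT replicate 1 and 1.98 in WT replicate 2, beside 3.82 and 4.17 over all features tested. The OE libraries had medians of 1.07 and 1.14 for the 19. No test of this excess was made.

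Summed by role, most groups of genes in the notes were also highest in WT replicate 2. The notes name 19 features as parts of respiratory complexes, ATP synthase, cytochrome c maturation or the ribosome. Of these, 4 reached 1 TPM, 17 were above 0 in some library, and 12 had their highest value in WT replicate 2. Among all features that averaged 1 TPM or more, 42.9% were highest there. Most of the 19 lay below that level, so the shares are not like for like. No share over all features of low level was computed. The 5 features with a note of ATP synthase, which makes ATP from the proton gradient, summed to 0.98 and 10.2 TPM in WT, against 2.02 and 1.70 TPM in OE. The 4 ribosomal proteins summed to 1.24 and 7.11 TPM in WT, against 1.42 and 2.17 TPM in OE. WT replicate 2 was the highest in both sums, and WT replicate 1 the lowest.

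Lower still were the 3 features for cytochrome c maturation, the pathway that attaches haem to cytochrome c, at 0.04 and 1.98 TPM in WT, against 0.31 and 0.91 TPM in OE. The 2 features of complex IV, cytochrome c oxidase subunit 3 and a subunit II-like domain, summed to 0.06 and 1.07 TPM in WT, against 0.27 and 0.44 TPM in OE. For the 2 features with a cytochrome b note, the haem protein at the core of complex III, the sums were 0 and 2.58 TPM in WT, against 0.20 and 0.40 TPM in OE. All of it came from ATMG00590, noted as a cytochrome b/b6 protein. ATMG00220, noted as apocytochrome b, was listed at 0 in every library. The 3 features of complex I gave 6.31 and 17.7 TPM in WT, against 5.79 and 18.3 TPM in OE, nearly all from ATMG01320. Of these 6 roles, complex I alone had an OE library above WT replicate 2.

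For the 53 features paired with chromosome 2, how reads were divided between a feature and its copy cannot be seen from TPM. Of the chromosome 2 loci with a note, 46 were in the table, 6 of them at 0 throughout and 3 with a mean of at least 1 TPM. In 5 pairs the mitochondrial feature and its copy were listed at exactly the same TPM in all 4 libraries. The rps12 pair was one of them, with 0.68, 3.90, 0.60 and 1.66 TPM in both features. Another was the pair for subunit 8 of ATP synthase (ATMG00480 and AT2G07707), with 0.09 and 2.04 TPM in WT, against 0.28 and 0.26 TPM in OE in both.

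For atp9 the copy was listed higher than the mitochondrial gene in every library but WT replicate 1. AT2G07671 had 0.32 and 11.7 TPM in WT, against 1.25 and 2.34 TPM in OE, beside the 0.62, 3.45, 0.67 and 0 TPM of ATMG01080, although their 258 coding bases were the same. For rpl5 the copy (AT2G07725) had 0.11 and 1.00 TPM in WT, against 0.23 and 0.64 TPM in OE. The sum over the 46 copies was 4.16 and 37.7 TPM in WT, against 6.52 and 11.5 TPM in OE, with WT replicate 2 the highest, as for the mitochondrial features of low level. Of the 46 copies, 33 had their highest value in that library, as did 42.9% of all features that averaged 1 TPM or more. Most copies lay below that level, and no share over all features of low level was computed. Reads may be shared between pairs, so the copies are not independent of the mitochondrial features. With the copies added, the mitochondrial share had a ratio of OE over WT of 0.832.

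**Figure D4:**
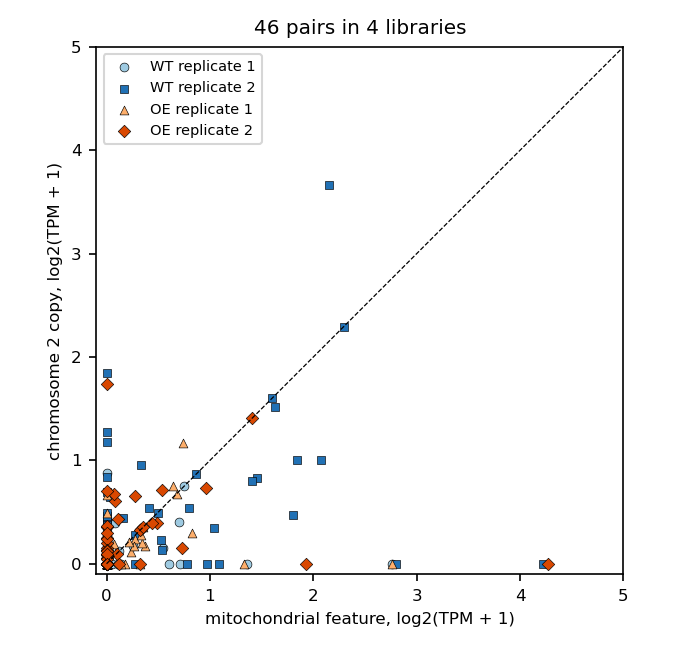
Level in log2(TPM + 1) of 46 chromosome 2 copies against that of the mitochondrial feature each is paired with in RefSeq notes, in each of the 4 libraries; the dashed line marks equal levels. Points on the line include the rps12 pair at 0.60 to 3.90 TPM, and the highest point above it is the atp9 copy at 11.7 TPM in WT replicate 2.

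Tested nuclear genes for the same complexes were listed at higher TPM, and none passed the test. Of 56 nuclear genes in 8 lists, 53 were tested, 0 were called (limma, Benjamini-Hochberg adjusted p), and 1 had an unadjusted p under 0.05. That gene was CYTC-2, a cytochrome c that carries electrons from complex III to complex IV, with 43.5 and 41.99 TPM in WT, against 29.97 and 16.2 TPM in OE (log2 fold change -0.92, SE 0.398; adjusted p = 0.895, limma with Benjamini-Hochberg). Its paralog CYTC-1 had 176 and 152 TPM in WT, against 211 and 130 TPM in OE, with overlapping groups. Tested genes of the respiratory chain and ATP synthase, 36 in all, had mean levels from 22.2 to 610 TPM, on the same per-length scale on which ATMG01320 had 11.9 TPM. The part of RNA selection and of reads shared with chromosome 2 in this gap was not tested.

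In those 36 genes the log2 fold change was below 0 in 32, with a median of -0.19. Over all features tested it was below 0 in 51.7%, with a median of -0.016. OE replicate 2 had the lowest sum, 3712 TPM, beside 4960, 5563 and 5583 TPM in WT replicates 1 and 2 and OE replicate 1. Without OE replicate 2 the log2 fold change was below 0 in 10 of the 36, so the direction rests on that library. Their median was then 0.12, beside 0.065 over all features in the same fit. By list, the medians were -0.13 for complex I, -0.41 for complex II, -0.24 for complex III, -0.086 for complex IV and -0.26 for complex V. Examples are ATPQ, subunit d of ATP synthase, at 247 and 292 TPM in WT, against 249 and 172 TPM in OE, and SDH2-2, the iron-sulfur subunit of succinate dehydrogenase, at 32.4 and 35.8 TPM in WT, against 29.8 and 20.1 TPM in OE. GAMMA CA2, a carbonic anhydrase-like subunit of plant complex I, had 53.7 and 43.03 TPM in WT, against 51.3 and 33.9 TPM in OE.

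The list for alternative respiration and mitochondrial stress had a median of -0.015 over 10 tested genes. DIC2, a dicarboxylate carrier of the inner membrane, had 13.7 and 11.9 TPM in WT, against 12.2 and 7.88 TPM in OE. AT5G51440, annotated as an HSP20-like chaperone, had 8.97 and 42.9 TPM in WT, against 58.7 and 30.3 TPM in OE. Genes for mitochondrial RNA synthesis, splicing and decay had a median of -0.33 over 7 tested genes. AT5G46920, annotated as an intron maturase, had 5.98 and 10.75 TPM in WT, against 5.43 and 5.82 TPM in OE, and AT5G14580, a polyribonucleotide nucleotidyltransferase, 5.48 and 5.73 TPM in WT, against 5.55 and 1.63 TPM in OE. AT5G46920 was lower in each OE library than in either WT library, by little, and the groups overlapped in AT5G51440, DIC2 and AT5G14580.

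**Figure D5:**
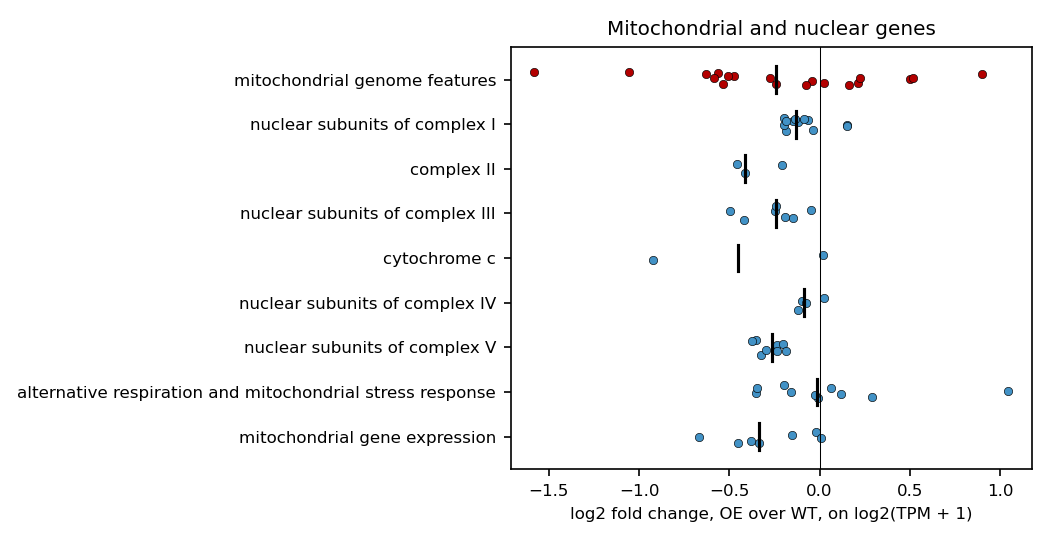
Log2 fold change of OE over WT on log2(TPM + 1) for the 19 mitochondrial features (red) and for the 53 tested nuclear genes in 8 lists (blue), with 1 point per gene and a vertical line at each median. The mitochondrial features spread more widely than the nuclear genes, whose medians lie between -0.45 for cytochrome c and -0.015 for alternative respiration and mitochondrial stress.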

How the data were processed

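The values were deposited as TPM, 1 value per gene in each of 4 libraries. A further 2 columns with the authors' genotype means were not used. WT replicate 2 follows its label, although its column carries another number. The tools fastp, HISAT and RSEM are named per the submitters' processing notes, and their versions, the build and the annotation are not given in the sources here. TPM keeps no read number, so depth is unknown and no counting interval is given. How reads shared by near-identical copies were divided is not stated, so values of such pairs are uncertain.

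The 20010 features that averaged 1 TPM or more were tested on log2(TPM + 1) with limma 3.58.1 in R 4.3.3 (variance trend, genotype as the only term, two-sided, Benjamini-Hochberg adjusted over all tested features, threshold 0.05). The summed share was compared by an exact permutation test. In simulated data for this comparison with 20010 features, this test called 2% of 50 genes changed 2-fold and 86% of 50 changed 8-fold. These genes were drawn from all features, and their changes were set on the log2(TPM + 1) scale. The shares need not hold for the mitochondrial features, whose median SE was 0.532, beside 0.402 over all features tested.

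The members and lists were chosen with earlier results of these data known. Values are given for each member with a mean of at least 1 TPM, and for up to 4 called genes, or the 2 with the smallest p, of a nuclear list (some not shown). Chromosome 2 loci were matched through RefSeq notes and aligned to the RefSeq mitochondrial genome (TAIR10.1) with BLAST 2.17.0. No coordinates are given because the authors' build is not named. Alternatives were other pseudocounts, filters, scalings, variance priors, the replicate number as a block and leaving out each library.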

Additional observations from a re-analysis of the deposited data

How the results depend on the processing

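In every setting run, no mitochondrial feature and no gene of the 8 nuclear lists was called. Among all features 18 were called, which became 63 with a minimum mean of 5 TPM, 108 with a robust variance prior and 338 with the replicate block. It was 0 with no filter on low values (1072 at an unadjusted p under 0.05), with quantile normalization (1114) and with median-ratio scaling (1133). Leaving out 1 library, where the lone library of a genotype is assumed to vary like the other genotype, gave 0 to 147 calls, and 0 without WT replicate 1 (1088 at an unadjusted p under 0.05) or without WT replicate 2 (1707). Same-numbered libraries had a correlation of their deviations of 0.033 over all features and 0.496 over the 19 mitochondrial ones, and the labels tie the numbers to nothing else, so the block stands only here.

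The ratio of the mitochondrial share, 0.913, was 0.629 without the 2 most abundant features (chosen after seeing the data), 1.03 with both organelles as the denominator, and 0.66 to 1.47 without 1 library. Median log2 fold changes of mitochondrial features ran from -0.70 without WT replicate 1 to 0.15 without WT replicate 2. Over all features the medians of these fits were -0.16 and 0.14. The mitochondrial median reached 0.21 over the 3 features that averaged 5 TPM or more. The sign of single features turned with quantile normalization for ATMG00060 (0.034) and ATMG00513 (0.017), with a pseudocount of 5 for ATMG01220 (-0.056), and with scaling to their own total without the 2 most abundant for ATMG00060 (0.20), ATMG00660 (0.077), ATMG00510 (0.0090) and ATMG00513 (0.041); the cause was not tested. In 13 features it turned when 1 library was left out, with log2 fold changes of -0.73 to 0.78 for ATMG01320, -0.81 to 1.81 for ATMG01370, -0.26 to 0.18 for ATMG00060, -1.17 to 1.63 for ATMG01220, -0.56 to 0.081 for ATMG00660, -0.33 to 0.65 for ATMG00580, -1.25 to 0.30 for ATMG00980, -1.77 to 0.75 for ATMG00690, -0.70 to 0.15 for ATMG00510, -1.34 to 0.22 for ATMG00650, -1.36 to 0.30 for ATMG00030, -1.39 to 0.13 for ATMG00210 and -0.31 to 0.16 for ATMG00513. A planned scaling to the mitochondrial total without ribosomal RNA was not run, since the sources used here name no mitochondrial feature as such. TPM gives no depth, so the precision of values near 1 TPM cannot be set from read numbers.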
